A study of Mus musculus with 9 samples.

Results

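The neutrophil granule genes followed here are *S100a8*, *S100a9*, *Ngp*, *Camp*, *Ltf*, *Lcn2*, *Retnlg*, *Mpo*, *Elane* and *Chil3*, which were picked by their symbols and make up 10 of the 48820 genes in the deposited table. Their mRNA was measured by RNA-seq in 9 hearts of untreated wild-type C57BL/6J mice, all labelled male. There were 3 biological replicates at each of 3 stages, E18.5d, a late embryonic stage just before birth, and postnatal days 1 (P1d) and 7 (P7d). The values are FPKM, in which the fragments of a gene are divided by its length and by the mapped fragments of the library, a scale on which genes can be compared per length. All 10 genes had a row in the table, but only 6 reached a mean of 1 FPKM over the 9 hearts.

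Neutrophils are short-lived white blood cells that carry antimicrobial proteins in granules, and they are made in the foetal liver before birth and in the bone marrow afterwards. The granule genes are switched on in sequence as the cells mature. Genes of the primary granules, such as *Mpo* and *Elane*, are transcribed in early precursors (promyelocytes), genes of the secondary granules, such as *Ngp*, *Camp*, *Ltf* and *Lcn2*, in later precursors, and *Retnlg*, *S100a8* and *S100a9* are still abundant as mRNA in mature cells in the blood. Several of these genes are also used elsewhere, with *Ltf* and *Lcn2* made by airway and other epithelia, *Chil3* by some macrophages, and *S100a8* and *S100a9* by monocytes.

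The neutrophil surface genes *Ly6g*, *Csf3r* and *Cxcr2* were at 0 or under 1 FPKM in these hearts, although other genes of mature neutrophils were higher, as given below. *Ly6g*, the surface protein by which mouse neutrophils are usually sorted, was listed at 0 FPKM in 8 hearts and at 0.22 FPKM in P7d replicate 1. *Csf3r*, the receptor for granulocyte colony-stimulating factor, was at 0.19 to 0.65 FPKM, and the chemokine receptor *Cxcr2* at 0.01 to 0.21 FPKM. The group is therefore called by its genes and not by a cell type, and in RNA from a whole tissue, more cells of a type and more RNA per cell cannot be told apart. The steps between low FPKM values gave a depth of 25.5 to 45.5 times 1e6 fragments per heart. A single fragment thus counts as 0.022 to 0.0392 FPKM on a length of 1 kilobase, and as less on a longer transcript. The tissue label was borne out by 7 cardiomyocyte genes, which summed to 20432 to 26099 FPKM in every heart. Hearts also differed in ways that the labels do not give. In 3 hearts (E18.5d replicates 1 and 2 and P1d replicate 1) both airway secretoglobins *Scgb3a1* and *Scgb3a2* were at 20 FPKM or more, and 4 hearts labelled male (E18.5d replicates 1 and 3 and P7d replicates 2 and 3) expressed *Xist* at 58.0 to 97.0 FPKM, against at most 0.11 FPKM in the other 5.

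The granule genes were highest on the first postnatal day. At P1d the summed FPKM of the 10 genes was 53.4, 79.8 and 58.9 in the 3 hearts, against 10.8, 13.5 and 6.78 at E18.5d and 16.4, 19.1 and 21.0 at P7d. No P1d heart overlapped with a heart of either other stage, and all 3 P7d hearts lay above all 3 E18.5d hearts. Of the 6 genes that reached a mean of 1 FPKM, 6 were higher at P1d than at E18.5d and 0 lower in limma, where 18.4% of the 13618 genes tested were called higher and 27.6% lower. The balance of this background depends on the scale of the columns (23.2% called higher against 22.9% lower under median of ratios, 8.63% and 34.5% with columns of equal sum), whereas 6 granule genes were higher under all 4 other scalings. Structural RNA genes made up 53.3% to 62.3% of the column sums. With these, mitochondrial and haemoglobin genes left out of the sum (called the narrower sum below), 17.3% were called higher and 27.8% lower. *Lcn2* and *Retnlg* passed the filter only through their P1d values, since their means over the E18.5d and P7d hearts were under 1 FPKM, and the fit was therefore also made on all 27255 genes above 0 in any heart. In that fit 8 of the 10 genes were higher at P1d (9.21% of all genes were) and 0 were lower (14.5%), and *Mpo* and *Elane* passed in neither direction. Every P1d heart was above every E18.5d heart for the same 8 genes, a pattern found in 14.1% of the genes above 0. From P1d to P7d, 5 genes fell in the filtered fit (28.6% of all genes, or 19.8% under median of ratios) and 0 rose (15.5%, or 21.9%), and 6 of the 10 fell and 0 rose in the fit without the filter (14.3% and 7.49%). For 7 of the 10, every P7d heart was below every P1d heart (22.6% of the genes above 0). The median log2 change of all 10 genes in that fit was 1.30 from E18.5d to P1d and -0.88 from P1d to P7d, while the median of all genes was -0.01 and -0.02. These comparisons share the P1d hearts, so the rise and the fall are not independent of each other.

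**Figure D1:**
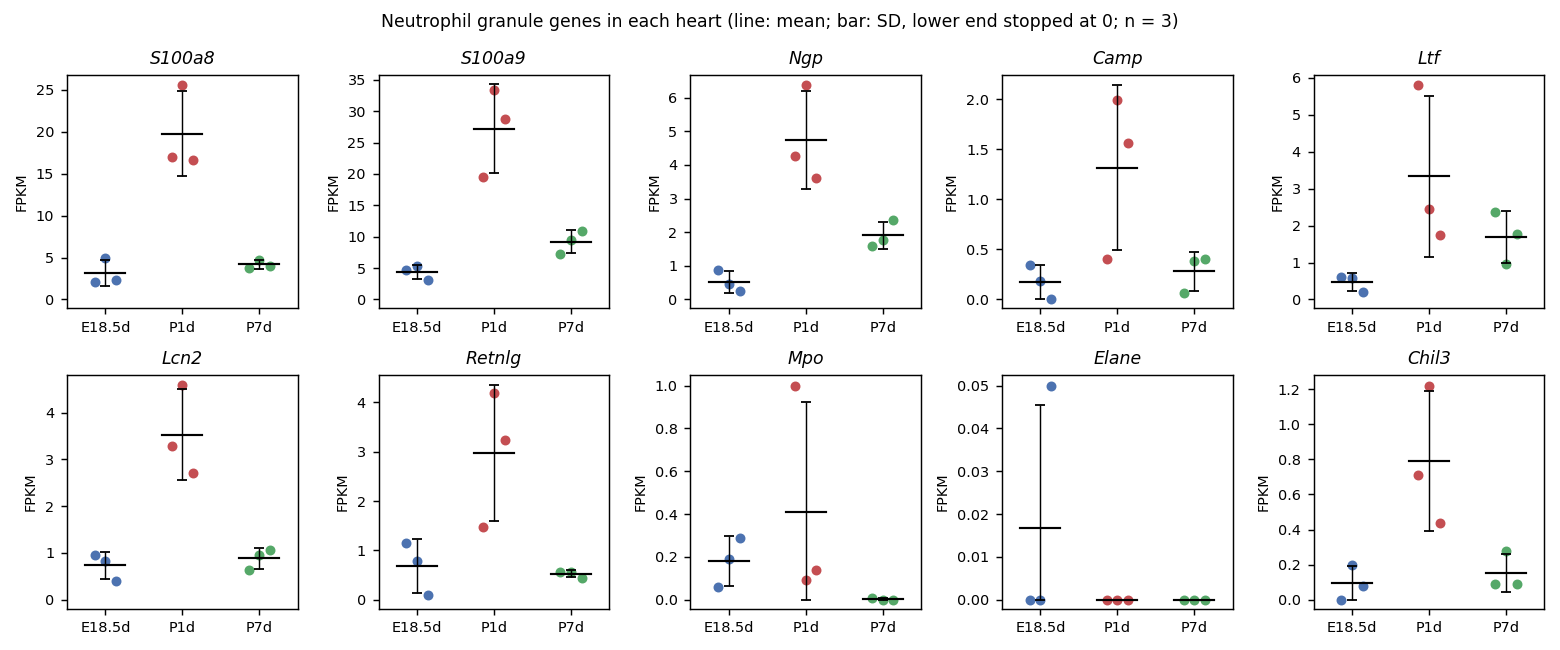
Expression of the 10 neutrophil granule genes in each heart, in FPKM, at E18.5d (blue), P1d (red) and P7d (green), with 1 point per heart, the mean as a line and the SD as a bar whose lower end is stopped at 0. The P1d points lie above all E18.5d points in 8 of the 10 panels, and the exceptions are *Mpo*, where 1 P1d heart is at 1.00 FPKM and the others are at 0.09 and 0.14, and *Elane*, with 0.05 FPKM in 1 heart. The vertical axes differ between panels.

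*S100a8* and *S100a9* encode the subunits of calprotectin, a calcium- and zinc-binding protein of the neutrophil cytosol that is released at sites of infection. *S100a8* (ENSMUSG00000056054.9, chr3:90668978-90670035 of GRCm38) was at 2.13, 4.99 and 2.33 FPKM at E18.5d, 17.0, 25.6 and 16.7 FPKM at P1d, and 3.79, 4.76 and 3.98 FPKM at P7d. The 3 P1d hearts stood apart from the other 6, which overlapped between E18.5d and P7d. Its mean rose 6.27-fold to 19.8 ± 5.07 FPKM at P1d from 3.15 ± 1.60 FPKM at E18.5d (SD, n = 3 hearts), a change of 2.36 in log2(FPKM + 1) with a standard error of 0.24 (limma, adjusted p = 7.52e-05). By P7d it was back at 4.18 ± 0.514 FPKM, 4.73-fold lower than at P1d (limma, adjusted p = 0.000249), and its change from E18.5d to P7d was 0.38 (limma, adjusted p = 0.222). The last of these passed the threshold without E18.5d replicate 2, the highest E18.5d heart, at 0.68 (limma, adjusted p = 0.0163).

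*S100a9* (ENSMUSG00000056071.12, chr3:90692632-90695721), which lies next to *S100a8* in the S100 gene cluster and is read from the opposite strand, was the most abundant gene of the group at each stage. It was at 4.65, 5.26 and 3.08 FPKM at E18.5d, 19.4, 33.3 and 28.8 FPKM at P1d, and 7.25, 9.41 and 10.9 FPKM at P7d. Here all 3 stages were separated, with no overlap between any pair of them. The mean rose 6.28-fold from E18.5d to P1d (log2 change 2.39, standard error 0.22, limma, adjusted p = 4.05e-05) and was still 2.12-fold higher at P7d than at E18.5d (0.94, limma, adjusted p = 0.00634). From P1d to P7d it fell by 1.45 on the log2 scale (limma, adjusted p = 0.000779). The ratio of *S100a8* to *S100a9* FPKM, as a description of the pair, averaged 0.721 ± 0.247 in E18.5d hearts, 0.740 ± 0.149 in P1d hearts and 0.464 ± 0.0869 in P7d hearts. Together the pair made up 62.7% to 79.8% of the summed FPKM of the 10 genes in single hearts, and stage means of this share were 72.8% (E18.5d), 73.1% (P1d) and 70.9% (P7d). The summed FPKM of the other 8 genes, 2.88 ± 1.37 in E18.5d hearts, 17.1 ± 3.74 in P1d hearts and 5.45 ± 0.612 in P7d hearts, was also highest at P1d.

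Among the secondary granule genes, *Ngp* had the largest ratio between P1d and E18.5d. It encodes neutrophilic granule protein, a relative of the cystatins and cathelicidins. *Ngp* (ENSMUSG00000032484.8, chr9:110419747-110423012) was at 0.89, 0.46 and 0.24 FPKM at E18.5d, 4.26, 6.38 and 3.60 FPKM at P1d, and 1.60, 1.76 and 2.35 FPKM at P7d, with no overlap between any pair of stages. With 1 annotated transcript its FPKM can be turned into fragments, which come to about 21, 16 and 7 at E18.5d, 110, 159 and 96 at P1d, and 53, 67 and 97 at P7d. The mean rose 8.96-fold at P1d (log2 change 1.90 with a standard error of 0.21, limma, adjusted p = 0.000101) and in P7d hearts was 3.59-fold above E18.5d (0.94, limma, adjusted p = 0.00465). After P1d it fell by 0.96 on the log2 scale (limma, adjusted p = 0.00484).

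*Lcn2*, which encodes lipocalin 2, a protein that withholds iron from bacteria by binding their siderophores, had overlapping hearts at E18.5d and P7d. *Lcn2* (ENSMUSG00000026822.14, chr2:32384633-32388252) was at 0.96, 0.83 and 0.41 FPKM at E18.5d, 3.28, 4.60 and 2.71 FPKM at P1d, and 0.64, 0.95 and 1.06 FPKM at P7d. The P1d hearts were all above the other 6. It rose 4.81-fold at P1d (log2 change 1.38, standard error 0.18, limma, adjusted p = 0.000319) and was 4.0-fold lower at P7d than at P1d (limma, adjusted p = 0.000646), while its change from E18.5d to P7d was 0.13 with a standard error of 0.18 (limma, adjusted p = 0.595).

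*Ltf*, which encodes the iron-binding protein lactotransferrin, was, of the members that passed the filter, the one whose P1d hearts differed most relative to their mean. *Ltf* (ENSMUSG00000032496.7, chr9:111019271-111042767) was at 0.62, 0.59 and 0.20 FPKM at E18.5d, 5.81, 2.44 and 1.75 FPKM at P1d, and 2.37, 0.97 and 1.76 FPKM at P7d. P1d replicate 1 stood above all others, and the P1d and P7d hearts overlapped. The rise from E18.5d to P1d was 7.09-fold (log2 change 1.46, standard error 0.32, limma, adjusted p = 0.0050) and 1.08 without P1d replicate 1 (limma, adjusted p = 0.00868). The P7d hearts were all above the E18.5d hearts, but the log2 change of 0.86 did not pass the threshold (limma, adjusted p = 0.0504) and did pass it in 10 of 21 alternatives (adjusted p from 0.0116 to 0.155). Between P1d and P7d the change was -0.60 (limma, adjusted p = 0.155), and -0.22 without P1d replicate 1.

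*Camp*, which encodes the cathelicidin antimicrobial peptide of mice, did not reach the filter. *Camp* (ENSMUSG00000038357.10, chr9:109847379-109849617) was at 0.34, 0.18 and 0 FPKM at E18.5d, 0.40, 1.99 and 1.56 FPKM at P1d, and 0.06, 0.38 and 0.40 FPKM at P7d. The P1d hearts were above the E18.5d hearts, but replicate 1 of P1d only just, at about 5 fragments where the other P1d hearts had 24 and 20 and E18.5d hearts at most 4. In the fit without the filter its rise at P1d was 0.92 on the log2 scale (standard error 0.27, limma, adjusted p = 0.0425), a call that was lost in 12 of 20 alternatives (adjusted p from 0.00472 to 0.143). Its change from P1d to P7d was -0.80 (limma, adjusted p = 0.0754) and from E18.5d to P7d 0.12 (limma, adjusted p = 0.803).

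*Retnlg* and *Chil3* encode secreted proteins that myeloid cells carry in their granules or vesicles, resistin-like gamma and the chitinase-like lectin Ym1. *Retnlg* (ENSMUSG00000022651.5, chr16:48872621-48874496) was at 1.16, 0.79 and 0.10 FPKM at E18.5d, 1.48, 4.19 and 3.24 FPKM at P1d, and 0.57, 0.56 and 0.45 FPKM at P7d. All P1d hearts were above the other 6, with the smallest gap between P1d replicate 1 and E18.5d replicate 1. The P1d hearts were 4.35-fold higher (log2 change 1.23 with a standard error of 0.30, limma, adjusted p = 0.00810) and the P7d level was 5.64-fold lower than at P1d (-1.31, limma, adjusted p = 0.00628). *Retnlg* was the 1 member with a P7d mean below its E18.5d mean among those that passed the filter, at -0.09 (limma, adjusted p = 0.830), and the sign of that change turned in 4 of 21 alternatives.

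*Chil3* (ENSMUSG00000040809.10, chr3:106147554-106167564) did not reach the filter, at 0, 0.20 and 0.08 FPKM at E18.5d, 0.71, 1.22 and 0.44 FPKM at P1d, and 0.09, 0.28 and 0.09 FPKM at P7d. The 3 P1d hearts were above the other 6. In the fit without the filter it rose by 0.69 on the log2 scale at P1d (SE 0.15, limma, adjusted p = 0.0134) and fell by 0.62 from P1d to P7d (limma, adjusted p = 0.0239). These calls were lost in 5 and 7 of 20 alternatives, with adjusted p of up to 0.233 and 0.174.

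For the primary granule genes no P1d peak could be called, at low values that cannot show its absence. *Mpo*, which encodes myeloperoxidase, the enzyme that makes hypochlorous acid in the phagosome, was at 0.06, 0.19 and 0.29 FPKM at E18.5d, 1.00, 0.09 and 0.14 FPKM at P1d, and 0.01, 0 and 0 FPKM at P7d. *Mpo* (ENSMUSG00000009350.13, chr11:87793581-87804413) was thus high in 1 P1d heart, and the other 2 P1d hearts lay within the E18.5d range. Its log2 change from E18.5d to P1d was 0.20 without the filter (limma, adjusted p = 0.544) and turned to -0.077 without P1d replicate 1. All P7d hearts were below all hearts of the other stages, at about 1, 0 and 0 fragments if counted on the longest of its 6 annotated transcripts. The changes to P7d of -0.23 from E18.5d and -0.43 from P1d did not pass the threshold on this scale (limma, adjusted p = 0.493 and 0.198), which understates the change of genes at such low values. *Elane* (ENSMUSG00000020125.6, chr10:79886247-79888215), which encodes neutrophil elastase, was at 0.05 FPKM in E18.5d replicate 3, or 1 fragment, and at 0 in the other 8 hearts, so no difference could be detected at this depth.

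**Figure D2:**
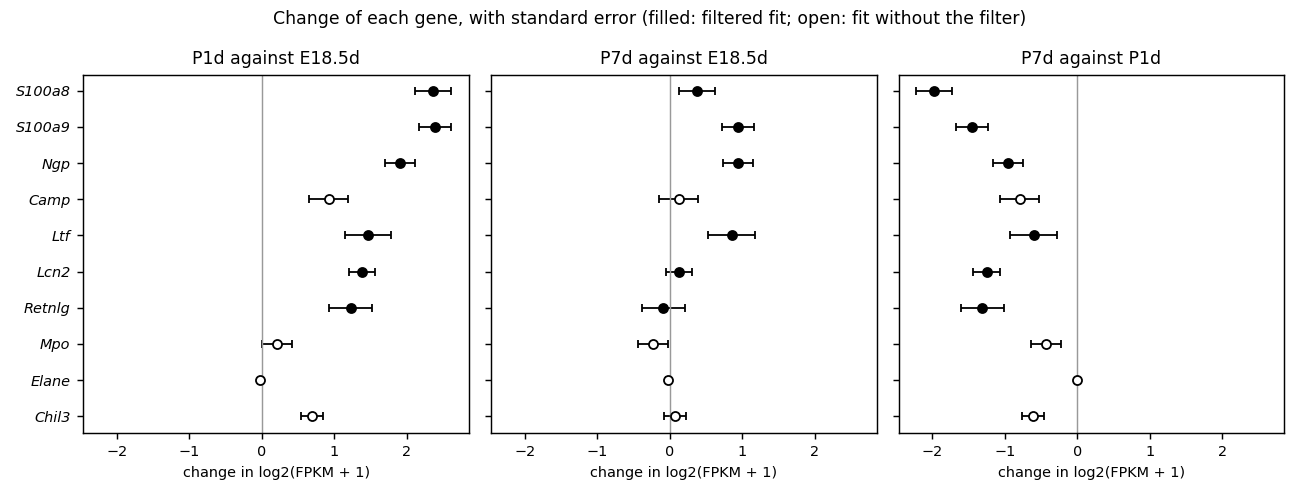
Change of each of the 10 genes in log2(FPKM + 1) between stages, with its standard error, from the filtered limma fit (filled) or the fit without the filter (open). From E18.5d to P1d the filled points run from 1.23 (*Retnlg*) to 2.39 (*S100a9*), from E18.5d to P7d from -0.09 (*Retnlg*) to 0.94 (*S100a9* and *Ngp*), and from P1d to P7d from -1.98 (*S100a8*) to -0.60 (*Ltf*).

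From E18.5d to P7d, *S100a9* and *Ngp* were higher among the 6 genes tested and 0 were lower, where 12.5% of all genes were called higher and 36.9% lower (21.3% against 20.9% under median of ratios, where *Ltf* was called as well). Without the filter the same 2 genes were higher (6.50% of all genes) and 0 lower (19.5%), and at an unadjusted p under 0.05 *Ltf* was the only gene added, with 0 lower. With no overlap between hearts as the criterion, *S100a9*, *Ngp* and *Ltf* were above E18.5d at P7d (10.8% of genes above 0) and *Mpo* was below (30.0%). In no member was an exact permutation test of FPKM able to go below a two-sided p of 0.1, the smallest that 3 hearts against 3 allow.

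The bases before the start of these genes are shown for the 3 genes with the largest changes at P1d and for both primary granule genes. The sequences come from RefSeq promoters of GRCm38.p6, all 10 genes were matched there, and the 250 bases before each RefSeq start were searched on both strands for TTNNGNAA (a C/EBP motif), GAGGAAGT (a motif of PU.1, the product of *Spi1*) and TATAAA (the TATA box). They are printed 5′ to 3′ on the strand of the gene up to the base before its first annotated exon base, with matches to the C/EBP and PU.1 motifs in capitals.
S100a8 (chr3:90668821-90668977, plus strand): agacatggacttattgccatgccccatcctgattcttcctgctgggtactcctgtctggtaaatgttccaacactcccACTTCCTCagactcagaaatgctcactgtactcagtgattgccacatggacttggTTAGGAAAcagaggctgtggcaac
S100a9 (chr3:90695722-90695971, minus strand): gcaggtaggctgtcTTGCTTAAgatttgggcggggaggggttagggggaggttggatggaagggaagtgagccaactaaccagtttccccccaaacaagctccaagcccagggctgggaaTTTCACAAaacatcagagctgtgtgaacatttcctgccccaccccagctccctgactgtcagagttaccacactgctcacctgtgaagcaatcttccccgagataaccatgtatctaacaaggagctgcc
Ngp (chr9:110419558-110419746, plus strand): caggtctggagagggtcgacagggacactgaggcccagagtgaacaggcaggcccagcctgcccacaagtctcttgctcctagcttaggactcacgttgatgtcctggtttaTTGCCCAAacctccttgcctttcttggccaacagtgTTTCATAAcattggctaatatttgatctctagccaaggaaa
Mpo (chr11:87793534-87793580, plus strand): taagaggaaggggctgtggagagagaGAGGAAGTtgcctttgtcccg
Elane (chr10:79886062-79886246, plus strand): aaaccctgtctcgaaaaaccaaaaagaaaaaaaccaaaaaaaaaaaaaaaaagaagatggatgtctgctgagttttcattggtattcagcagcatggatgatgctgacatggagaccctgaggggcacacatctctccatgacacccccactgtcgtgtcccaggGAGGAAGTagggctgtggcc

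The C/EBP letters were found before 7 of the 10 genes, *S100a8*, *S100a9*, *Ngp*, *Ltf*, *Lcn2*, *Retnlg* and *Chil3*, and before 36.8% of 32851 mouse promoters of the same length. For *Lcn2* the RefSeq start lies inside the GENCODE gene, so its match is within the annotated gene and no bases are printed for it. The letters were not found before *Camp*, *Mpo* or *Elane*. The PU.1 letters were found before *S100a8*, where ACTTCCTC is the motif read on the other strand, before *Mpo* and before *Elane*, and in 2.44% of all promoters. *S100a8* was the only member with the TATA letters (12.4% of all promoters), 30 to 25 bases before its RefSeq start and within the first bases of the longer GENCODE gene. A match of letters is a description of the sequence and does not show that a factor binds there.

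Other genes of mature neutrophils also peaked at P1d, among them the stefins, inhibitors of cysteine proteases that are abundant in neutrophils. Of 23 genes of the neutrophil surface and cytosol, 8 passed the filter, of which 7 were higher and 1 lower at P1d than at E18.5d, with a median log2 change of 1.09 against -0.06 for all genes tested. *Stfa1* was at 0.66, 0.46 and 0.76 FPKM at E18.5d, 6.01, 9.73 and 9.78 FPKM at P1d, and 2.94, 0.86 and 1.03 FPKM at P7d. It rose by 2.52 on the log2 scale (limma, adjusted p = 0.000104), before *Stfa2* (2.22) and *Stfa2l1* (2.11). *Stfa3*, *BC100530*, *Lrg1* and *Anxa1* were higher as well. The call of *Anxa1* was lost with columns of equal sum (limma, adjusted p = 0.227) but held with the narrower sum. In the fit without the filter *Anxa1* was not called (limma, adjusted p = 0.0574). *BC100530* passed the filter only through its P1d values and was also higher in the fit without it (limma, adjusted p = 0.0102). Of the 7 higher genes, 5 are stefins of near-identical sequence among which reads may have been shared, so they are no independent count. *G0s2*, an inhibitor of lipolysis that is not limited to neutrophils, was lower (-1.50). From P1d to P7d, 5 stefins fell, led by *Stfa2l1* (-1.995), *Stfa1* (-1.92) and *Stfa2* (-1.68), and *G0s2* rose (0.65). The fall of *Stfa3* was lost under all 4 other scalings and in the fit without the filter (limma, adjusted p = 0.0830). At P7d against E18.5d, *Lrg1* was higher (0.82) and *G0s2* lower (-0.84). In the fit without the filter *Csf3r* was higher at P1d (0.31, limma, adjusted p = 0.0184), as was *Cxcr2* (0.13, limma, adjusted p = 0.0373), both at low values.

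**Figure D3:**
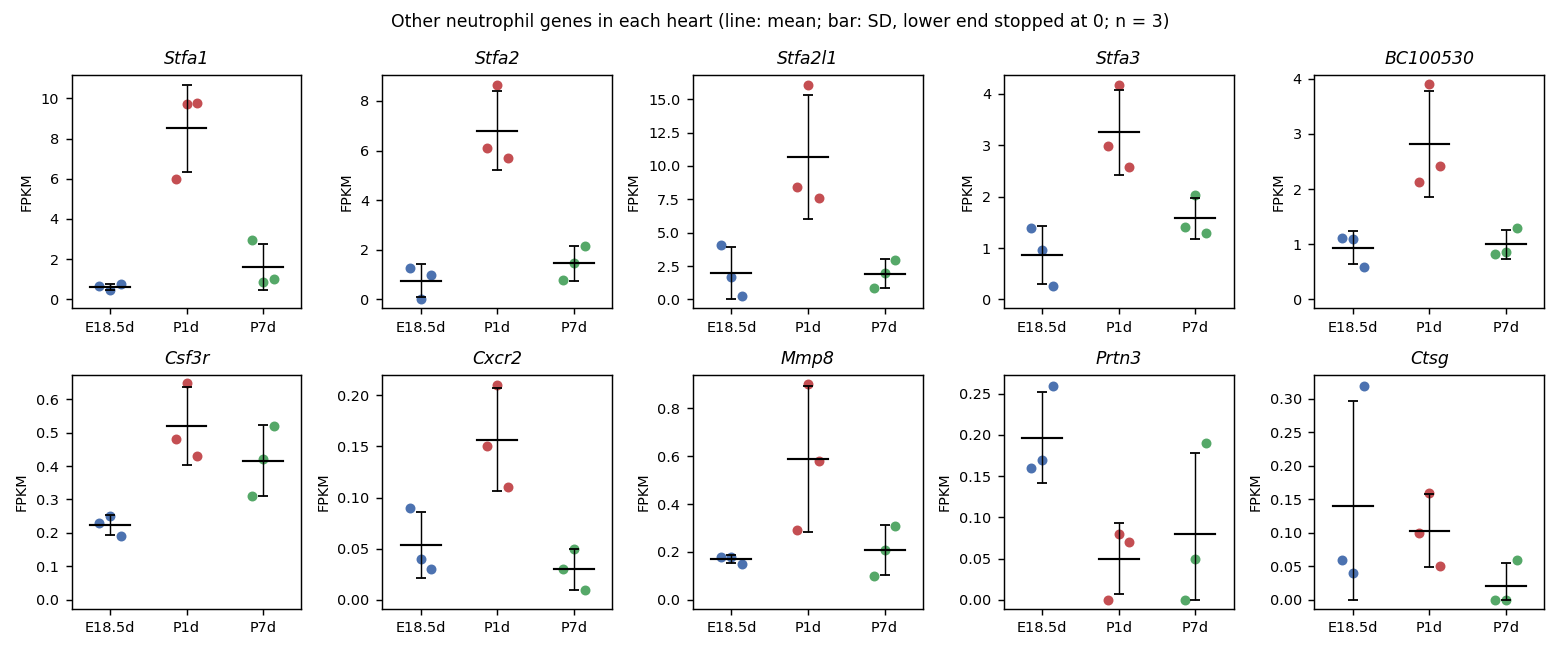
Expression of 10 other neutrophil genes in each heart, in FPKM, by stage, with the mean as a line and the SD as a bar whose lower end is stopped at 0. The 5 stefin panels (top) have their highest points at P1d, as do *Csf3r*, *Cxcr2* and *Mmp8* (at most 0.65, 0.21 and 0.90 FPKM), whereas the promyelocyte genes *Prtn3* and *Ctsg* have theirs at E18.5d (0.26 and 0.32 FPKM).

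Of 13 further genes of secondary and tertiary granules, 6 passed the filter and 0 were higher or lower at P1d than at E18.5d (median 0.19). None of them passed between E18.5d and P7d either (median -0.06, against -0.17 for all genes tested). Without the filter, 4 were higher at P1d, the gelatinase and collagenase genes *Mmp9* and *Mmp8*, *Olfm4* and *Itgb2l*, and 0 were lower. *Mmp8* was at 0.18, 0.18 and 0.15 FPKM at E18.5d, 0.29, 0.90 and 0.58 FPKM at P1d, and 0.10, 0.21 and 0.31 FPKM at P7d. Between P1d and P7d *Hp* (haptoglobin) and *Pglyrp1*, a peptidoglycan-binding protein, fell by 1.25 and 1.05 on the log2 scale. Both passed the filter only through their P1d values. In the fit without it the fall of *Hp* passed the threshold (limma, adjusted p = 0.0245) and that of *Pglyrp1* did not (limma, adjusted p = 0.0952). The fall of *Pglyrp1* was lost under 3 of 4 other scalings of the columns (limma, adjusted p from 0.0557 to 0.0693). *Mmp9* was at 0.04 to 0.58 FPKM and *Cd177*, a neutrophil surface protein, at 0.03 to 0.29 FPKM.

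Most other genes of primary granules and promyelocytes did not reach the filter and were too low to show or lack a P1d peak. Of 9 further genes of this kind, 3 passed the filter, of which *Lyz2* (0.73) and *Srgn* (0.58) were higher at P1d and also at P7d (0.54 and 0.55) than at E18.5d, and 0 passed between P1d and P7d. The median of the 3 at P1d was 0.58. Both are shared with macrophages and other blood cells. *Prtn3*, proteinase 3, was at 0.16, 0.17 and 0.26 FPKM at E18.5d, 0, 0.08 and 0.07 FPKM at P1d and 0, 0.05 and 0.19 FPKM at P7d. *Ctsg*, cathepsin G, was at most 0.32 FPKM, and *Cebpe*, the C/EBP factor of late granulocyte precursors, at most 0.10 FPKM.

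Of 9 granulocyte transcription factor genes, 4 passed the filter and 3 were higher at P1d than at E18.5d, *Spi1* (0.81), *Cebpd* (0.78) and *Cebpa* (0.44), with a median of 0.61. *Cebpb* passed the filter too and changed by -0.37 (limma, adjusted p = 0.214). *Gfi1* was at most 0.09 FPKM. *Spi1* was at 1.21, 0.90 and 1.38 FPKM at E18.5d, 3.48, 3.35 and 1.77 FPKM at P1d, and 2.07, 2.19 and 1.78 FPKM at P7d. *Cebpd* fell from P1d to P7d (-1.14) and was lower at P7d than at E18.5d (-0.36). The latter was lost under 3 of 4 other scalings and in the fit without the filter (limma, adjusted p = 0.0931). The call of *Cebpa* at P1d was lost with columns of equal sum (limma, adjusted p = 0.0815) but held with the narrower sum. *Cebpa* passed the filter only through its P1d values and was also higher in the fit without it (limma, adjusted p = 0.0278). Of 17 genes of neutrophil attraction and adhesion, 7 passed, of which the integrin *Itgb2* was higher (0.40) and *Vcam1*, an adhesion molecule of endothelial and other cells, lower (-0.56) at P1d, with a median of -0.09. With columns of equal sum the call of *Itgb2* was lost (limma, adjusted p = 0.103) and 2 genes of the list were lower. That call of *Itgb2* held with the narrower sum and was lost in the fit without the filter (limma, adjusted p = 0.0631). At P7d *Itgb2* (0.41) and *Csf1* (0.42) were higher and *Vcam1* (-1.17) and *Cxcl12* (-0.55) lower than at E18.5d. After P1d *Csf1* rose (0.48) and *Vcam1* fell (-0.61). *Cxcl1*, a chemokine that draws neutrophils, was under the filter, at 0.25, 0.29 and 0.19 FPKM at E18.5d, 1.65, 1.06 and 0.85 FPKM at P1d and 0.70, 0.62 and 0.40 FPKM at P7d, and was higher at P1d in the fit without it (0.80, limma, adjusted p = 0.00425).

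Markers of other blood cells moved with the stages too. Of 14 macrophage and monocyte genes, 9 passed the filter and 5 were higher at P1d than at E18.5d, with the complement genes *C1qb* (0.73), *C1qc* (0.67) and *C1qa* (0.59) the largest, and 0 lower (median 0.52), where 18.4% of all genes were higher. With columns of equal sum 4 were higher and 2 lower, and *Cd68* was lost (limma, adjusted p = 0.064). With the narrower sum 5 were higher and 0 lower. In the fit without the filter *Cd68* was not called (limma, adjusted p = 0.0674). *C1qa* was at 21.4, 19.6 and 15.9 FPKM at E18.5d, 30.3, 35.3 and 22.5 FPKM at P1d, and 22.7, 25.2 and 22.2 FPKM at P7d. At P7d against E18.5d *Csf1r* (0.51) and *Cx3cr1* (0.45) were higher and *Lyve1* (-1.81) lower. This call of *Cx3cr1* was lost in the fit without the filter (limma, adjusted p = 0.0675). Between P1d and P7d *Cx3cr1* (0.56) and *Adgre1* rose, while *Lyve1* (-1.95), *C1qb* (-0.58) and *C1qc* (-0.52) fell. The summed level of the 14 genes was 82.5 to 101 FPKM at E18.5d, 105 to 156 FPKM at P1d and 93.0 to 99.0 FPKM at P7d. Of 4 genes of all leukocytes, *Cd53* and *Coro1a* were higher at P1d (0.41 and 0.39). Both calls held with the narrower sum but were lost with columns of equal sum and in the fit without the filter. *Ptprc*, which encodes CD45, was at 1.55, 1.66 and 1.28 FPKM at E18.5d, 1.29, 1.23 and 1.47 FPKM at P1d and 3.08, 2.03 and 2.67 FPKM at P7d. *Ptprc* was higher at P7d than at either earlier stage (0.52 and 0.62, limma, adjusted p = 0.00865 and 0.00431), unlike the granule genes. *Pf4*, platelet factor 4, was higher at P1d (0.70) and fell again by P7d (-0.58). Of 8 genes of mast cells and basophils, 5 passed the filter, and at P1d *Mcpt4* (0.93) and *Tpsb2* (0.57) were higher and *Kit* lower (-0.45) than at E18.5d. The call of *Tpsb2* was lost with columns of equal sum (limma, adjusted p = 0.0596) but held with the narrower sum. In the fit without the filter *Tpsb2* was not called (limma, adjusted p = 0.0568). The mast cell proteases *Tpsb2* (-1.68), *Cpa3* (-1.22) and *Cma1* (-1.15) fell from P1d to P7d, as granule genes did, and were also lower at P7d than at E18.5d. None of 6 eosinophil and 10 lymphocyte genes passed the filter. The part of these cells in the change of the granule genes was not tested.

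The red cell genes *Hbb-bs* and *Alas2* had their highest stage means at P1d too, with hearts that overlapped between E18.5d and P1d. *Hbb-bs*, an adult beta-globin, was at 5013, 3929 and 10262 FPKM at E18.5d, 6996, 10873 and 5672 FPKM at P1d, and 4946, 3804 and 4285 FPKM at P7d. The E18.5d heart with the most *Hbb-bs*, replicate 3, had the smallest sum of granule genes at that stage (6.78 FPKM), whereas P1d replicate 2 was the highest P1d heart in both. *Alas2*, which makes haem in red cell precursors, was at 19.1 to 45.3 FPKM at E18.5d, 36.6 to 61.9 FPKM at P1d and 28.6 to 34.8 FPKM at P7d, and the embryonic globin *Hbb-y* was at 0.07 to 1.61 FPKM. Of 12 erythroid genes, 11 were found in the table and 8 passed the filter, of which *Slc4a1* was higher (1.02) and *Tfrc* lower (-1.35) at P1d. After P1d *Slc4a1* (-0.72) and *Hbb-bt* (-1.14) fell and *Tfrc* rose (2.06). The fall of *Hbb-bt* was lost under 2 of 4 other scalings and in the fit without the filter (limma, adjusted p = 0.0684). The summed level of the 11 erythroid genes was 8467 to 22811 FPKM at E18.5d, 12767 to 24747 FPKM at P1d and 8655 to 10513 FPKM at P7d. With the mean of 4 haemoglobin genes as a covariate, 6 granule genes were higher at P1d than at E18.5d, as were 2139 of all 13618 genes, and 5 were lower at P7d than at P1d, as were 2411 of all genes. With a covariate for *Xist*, which was at most 0.11 FPKM in all 3 P1d hearts, these numbers were 6 (1607 of all genes) and 5 (2438 of all genes).

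Airway genes were high in 3 hearts, 1 of them the P1d heart with the most *Ltf* and *Mpo*. *Scgb3a1*, a secretoglobin of airway epithelium, was at 34.9, 115 and 0.48 FPKM at E18.5d, 270 FPKM in P1d replicate 1, 2.97 and 0.50 FPKM in the other P1d hearts, and 0 in all P7d hearts. In P1d replicate 1 *Ltf* was at 5.81 FPKM, *Mpo* at 1.00 FPKM and *Pglyrp1* at 4.77 FPKM, each the highest of the 9 hearts, while *S100a9*, *Camp* and *Retnlg* were lowest there among the P1d hearts. The 11 airway and lung genes summed to 2.22 to 286 FPKM at E18.5d, 1.58 to 577 FPKM at P1d and 0.02 to 0.36 FPKM at P7d, 5 of them passed the filter, and 0 were called in any comparison. Leaving out the 3 hearts leaves 1 heart at E18.5d, replicate 3, so changes against E18.5d have no spread of their own. That heart had the smallest sum of granule genes at its stage (6.78 FPKM against 10.8 and 13.5 FPKM) but the most *Mpo* (0.29 FPKM). It is thus a low baseline for the group, and calls from that fit are not given. The log2 change at P1d was then 1.36 for *Ltf* and -0.21 for *Mpo*.

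**Figure D4:**
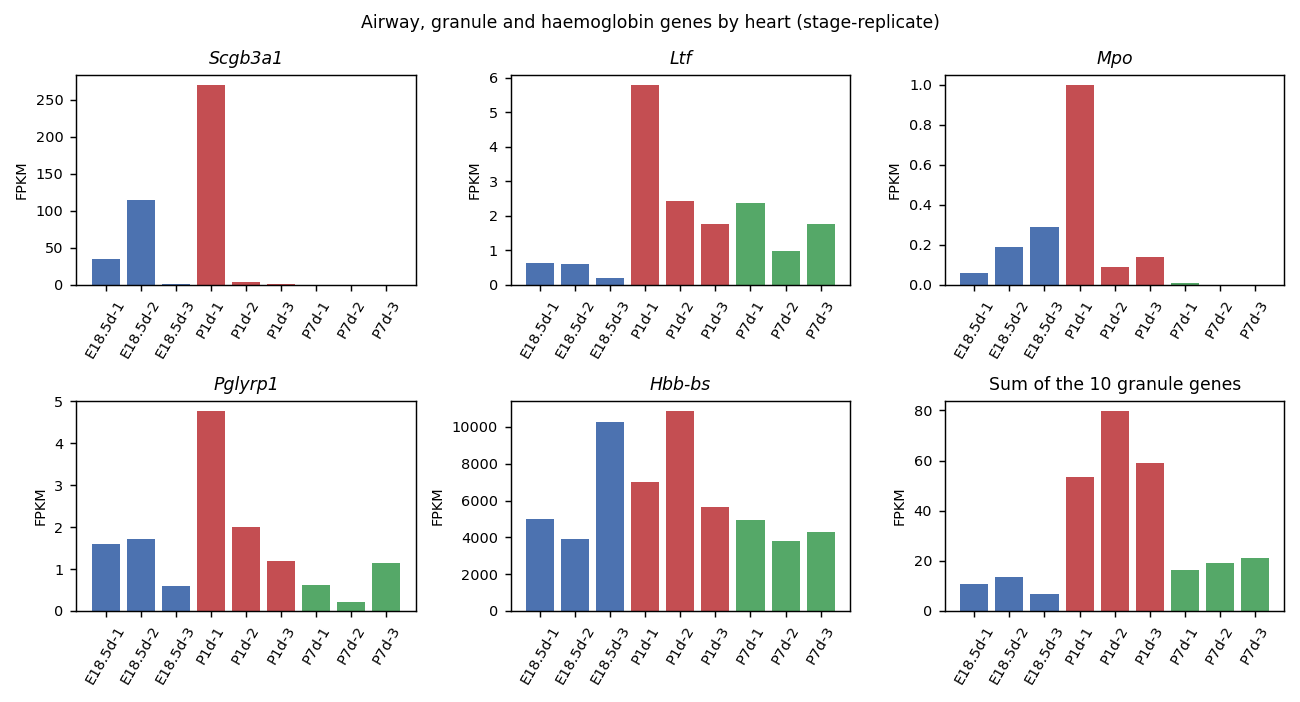
FPKM of the airway gene *Scgb3a1*, the granule genes *Ltf*, *Mpo* and *Pglyrp1*, the haemoglobin gene *Hbb-bs* and the sum of the 10 granule genes, with 1 bar per heart (blue E18.5d, red P1d, green P7d, numbered by replicate). *Scgb3a1*, *Ltf*, *Mpo* and *Pglyrp1* are all highest in P1d replicate 1 (270, 5.81, 1.00 and 4.77 FPKM), while the sum of the granule genes is 53.4 to 79.8 FPKM in all 3 P1d hearts and at most 21.0 FPKM elsewhere.

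The genes most like the granule genes across the hearts are expressed in many tissues. The pattern was taken as the mean log2(FPKM + 1) of the 6 members that passed the filter and compared with every other gene tested by Pearson correlation over the 9 hearts, which fall into 3 stages, so that r describes the shape and has no test. The highest r was that of *Fuca1*, which encodes a lysosomal fucosidase (0.994), before *Itm2b* (0.990), *Dcaf8* (0.985), *Rbfa* (0.984) and *Mindy1* (0.984). *Fuca1* was at 13.2, 12.7 and 11.2 FPKM at E18.5d, 18.6, 21.9 and 19.0 FPKM at P1d, and 13.92, 14.02 and 13.87 FPKM at P7d. It had the same order of stages as *S100a9*, with far smaller ratios between them. In all, 1493 of the 13618 genes tested (11.0%) were higher at P1d than at both other stages, and 5 of the 6 granule genes tested were among them. That count depends in part on the filter, since *Lcn2* and *Retnlg*, which are in it, passed the filter only through their P1d values.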

How the data were processed

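The authors deposited FPKM values of 48820 genes in 9 hearts, rounded to 2 decimals. Per the labels, libraries were made from total RNA with the NEBNext Ultra kit, and the submitters' processing notes name STAR, GRCm38 and mm10. The counting tool is not given in the sources used here. FPKM are not counts. Depth was read from steps between low values, of which 88.0% to 91.9% were whole multiples of 1 fragment (within 0.1). Gene positions came from GENCODE M21.

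Hearts were grouped by their labels. Genes averaging 1 FPKM or more over all hearts were fitted as log2(FPKM + 1) with limma 3.58.1 in R 4.3.3 (eBayes with trend, all 3 stages in 1 fit, Benjamini-Hochberg adjustment over all 13618 genes, threshold 0.05). This scale understates changes of low genes. Members under the filter were read from the same fit on 27255 genes. The fit was tested on simulated data. P-values measure the spread between the hearts, whose litters the labels do not give.

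The members and lists were chosen with earlier results of these data known. Named genes were all members, up to 3 genes per direction of each list, and markers of other cells. Alternatives were other pseudocounts, filters and scalings, 2 stages in the fit, eBayes without trend, a replicate block and leaving out each heart. The airway, haemoglobin and *Xist* settings, and the alternatives for the members under the filter, were added after seeing the data.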

Additional observations from a re-analysis of the deposited data

How the results depend on the processing

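With a mean of at least 5 FPKM as the filter, *S100a8* and *S100a9* were the only members tested, and 2 were higher at P1d than at E18.5d, 1 higher at P7d than at E18.5d and 2 lower at P7d than at P1d. An absolute log2 change of at least 1 left 0 of the 2 calls from E18.5d to P7d and 4 of the 5 from P1d to P7d. Leaving out each heart in turn gave 6 to 6, 2 to 3 and 5 to 5 calls for the same comparisons. For the settings in this paragraph the shares of all genes called are not given. The counts therefore do not set the members against other genes. With the replicate number as a block, 4 genes were higher at P7d than at E18.5d, but same-numbered hearts are not shown to be paired (correlations of their deviations from -0.0546 to 0.112, and 4 of 9 hearts correlated best with their own number), and the block changed no count of calls in the other comparisons by over 1.5 times.

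The single changes that turned sign had not passed the threshold in the filtered fit or, for *Chil3* and *Mpo*, in the fit without the filter. From E18.5d to P7d, leaving out single hearts gave -0.015 (without E18.5d replicate 3) to 0.22 for *Lcn2*, -0.00036 (without P7d replicate 2) to 0.15 for *Chil3* and -0.37 to 0.12 (without E18.5d replicate 1) for *Retnlg*, which was also at 0.039 with a pseudocount of 0.1, 0.028 with quantile normalization and 0.47 without the 3 hearts with airway genes. *Mpo* from E18.5d to P1d ranged from -0.077 (without P1d replicate 1) to 0.36, and was at -0.21 without the airway hearts. The cause was not tested. Other scalings moved the median change of all genes by up to 0.155 (log2, E18.5d to P7d), to -0.02, under which *S100a8* changed by 0.52 (limma, adjusted p = 0.107). Depth limits *Camp*, *Mpo*, *Elane* and *Chil3*, at 0 to 9 fragments in most E18.5d and P7d hearts, although *Mpo* had about 18 and 22 in E18.5d replicates 2 and 3. The fragments of *Mpo* and *Chil3*, with 6 and 3 annotated transcripts, assume the longest transcript.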
